A study of Mus musculus with 8 samples.

Results

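The 8 genes described here are the melanin synthesis and pigment cell genes *Tyr*, *Tyrp1*, *Dct*, *Pmel*, *Mlana*, *Slc45a2*, *Oca2* and *Mitf*, read in the retinal transcriptome of *Rbfox2*-/- and control mice. They were chosen by name, as the enzymes, structural proteins and transporters of the pigment granule together with the transcription factor of the pigment cell lineage, and the rule names them without a threshold on a measured value. All 8 were among the 17500 genes of the deposited table, and all 8 passed the filter on low counts that left 16797 genes for testing.

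The study asked which retinal genes respond to the loss of the RNA binding protein Rbfox2. RNA-seq was performed on poly(A) RNA of retinas from 4 control and 4 *Rbfox2*-/- mice on a C57BL/6J background, 1 library per mouse, at 6 months of age. *Rbfox2*-/- animals carried *Rbfox2* fl/fl and 1 copy of a transgene in which a promoter active in most cell types drives a tamoxifen-inducible Cre recombinase. Control animals were age-matched *Rbfox2* fl/+ heterozygotes, and the labels give a tamoxifen interval of 4 months for every mouse. The cells in which recombination took place cannot be read from whole-retina RNA. The controls carried 1 floxed allele, and their Cre status is not stated in the sources used here. The labels give no sex, litter or batch, and do not say whether 1 or both eyes of a mouse were used.

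Melanin is made in melanosomes, organelles of pigment cells that belong to the lysosome-related family. Tyrosinase, encoded by *Tyr*, oxidises tyrosine, and the related enzymes encoded by *Dct* and *Tyrp1* act on later intermediates of the eumelanin pathway. The neural retina itself makes no melanin. In the eye, melanin lies in the retinal pigment epithelium, which adjoins the photoreceptors, in the pigmented epithelia of the ciliary body and iris, and in the melanocytes of the choroid and iris stroma.

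Melanocyte promoters are known for a short sequence called the M-box, TCATGTG, which contains CATGTG, an E-box that the Mitf protein can bind. The sequences before the start sites of the 8 genes were examined for these letters as a description only, and a link to their levels was not tested. RefSeq windows of 250 bases before the start (GRCm38.p6) were found for 5 of the 8 genes, *Tyr*, *Tyrp1*, *Dct*, *Oca2* and *Mitf*, and were not analysed here for *Pmel*, *Mlana* and *Slc45a2*. The 5 matches follow with at least 10 bases on either side, 5′ to 3′ on the strand that reads TCATGTG or CATGTG, with the matching letters in capitals.
Tyr, chr7:87493518-87493544, gene strand: aaaaagttagTCATGTGctttgcagaa
Tyrp1, chr4:80834156-80834182, gene strand: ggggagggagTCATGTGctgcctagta
Dct, chr14:118052381-118052407, gene strand: gcacttagggTCATGTGctaacaaaga
Dct, chr14:118052462-118052488, opposite strand: tttattgggcTCATGTGtcccagccaa
Oca2, chr7:56239563-56239589, opposite strand: aaaattccagcCATGTGtagcaagctc

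The 7 letters TCATGTG, read on both strands, were present in the windows of 3 of these genes, the enzymes *Tyr*, *Tyrp1* and *Dct*, and in 3.3% of the 32851 promoter windows of the mouse table. The 6 letters CATGTG were present in 4 of the 5 genes, including *Oca2*, against 12.3% of all windows, and CACGTG, another E-box, in none of them, against 6.0%. The first base of the match lay 22 bases before the RefSeq start in *Tyr*, 47 in *Tyrp1*, 151 and 232 in *Dct*, and 186 in *Oca2*. The start of a gene can differ between annotations. In GENCODE M21 *Tyrp1* begins at 80834123, so its match lies inside that gene span and not before it. None of the 3 windows of *Mitf* held any of these letters. A match describes the letters only and does not show a bound site. The whole windows of *Tyr* and *Dct* are shown because they place 1 and 2 matches in their context, on the strand of the gene, with TCATGTG or its reverse complement CACATGA in capitals.
Tyr, chr7:87493513-87493762: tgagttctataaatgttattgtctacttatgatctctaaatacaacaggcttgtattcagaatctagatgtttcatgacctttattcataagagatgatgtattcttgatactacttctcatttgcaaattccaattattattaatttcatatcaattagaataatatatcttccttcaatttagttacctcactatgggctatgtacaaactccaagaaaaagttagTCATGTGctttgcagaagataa
Dct, chr14:118052247-118052496: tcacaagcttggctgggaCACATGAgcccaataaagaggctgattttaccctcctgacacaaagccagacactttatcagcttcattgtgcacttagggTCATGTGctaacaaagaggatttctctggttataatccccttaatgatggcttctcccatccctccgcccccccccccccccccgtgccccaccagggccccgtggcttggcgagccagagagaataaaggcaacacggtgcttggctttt

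The libraries held between 160630226 and 211283591 counts. Levels are given as CPM, the counts of a gene per 1000000 counts of the library after scaling by TMM factors. Before this scaling 3 counts corresponded to 0.0142 to 0.0187 CPM, and the least abundant of the 8 genes still had 29 counts in its lowest library. *Rbfox2* was lower in every library labelled knockout, with 53.6 to 59.4 CPM against 144 to 157 CPM in controls (log2 fold change -1.41, SE 0.046, adjusted p = 5.51e-07, edgeR quasi-likelihood test with Benjamini-Hochberg adjustment). On the first principal component, which held 40.5% of the variance, the retinas M901 and M902 of the *Rbfox2*-/- group stood apart from the other 6. The same libraries held 277506 and 275967 counts of *Xist*, the RNA of the inactive X chromosome, against 312 to 426 in the others. High *Xist* was thus found in *Rbfox2*-/- libraries only, and the groups were not balanced for it. A part of sex in the differences between the groups was not tested. M909 stood apart on the second component, which held 19.2%. Values without M901 and M902 are given beside the results that they move most. In whole retinas, fewer cells of a type and less RNA per cell cannot be told apart.

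None of the 8 genes passed the test between the groups, and all but *Mitf* differed more between mice of the same group than nearly all other retinal genes. The mean of every gene was higher in controls than in *Rbfox2*-/- retinas, but the group ranges overlapped for each of them, since the controls M833 and M896 lay within or below the range of the *Rbfox2*-/- retinas. Fold changes are given as log2 of *Rbfox2*-/- over control with their standard error (SE) from edgeR's quasi-likelihood test, and adjusted p-values were obtained by the Benjamini-Hochberg method over the 16797 genes.

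*Tyr* (chromosome 7, 87424771 to 87493512, minus strand; all gene positions are from GENCODE M21 on GRCm38) encodes the rate-limiting enzyme of melanin synthesis. Its level was 1.57, 7.23, 1.31 and 12.8 CPM in the control retinas M833, M894, M896 and M898, and 3.16, 1.05, 1.63 and 2.65 CPM in the *Rbfox2*-/- retinas M893, M901, M902 and M909. The controls M894 and M898 were above every *Rbfox2*-/- retina, while M833 and M896 lay within their range. The group means were 5.73 ± 5.45 and 2.12 ± 0.955 CPM (SD, n = 4 each), with a log2 fold change of -1.43 (SE 0.68, adjusted p = 0.397, edgeR quasi-likelihood test).

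*Tyrp1* (chromosome 4, 80834123 to 80851719, plus strand) encodes tyrosinase-related protein 1, which acts late in eumelanin synthesis. In the same order of mice, controls had 5.13, 24.9, 6.01 and 65.7 CPM and *Rbfox2*-/- retinas 12.9, 1.86, 2.89 and 7.26 CPM. M893 and M909 of the *Rbfox2*-/- group were above the controls M833 and M896, so that the groups overlapped. The means were 25.4 ± 28.4 and 6.22 ± 5.02 CPM (SD, n = 4 each). The log2 fold change was -2.03 (SE 0.85, unadjusted p = 0.0377, adjusted p = 0.353, edgeR quasi-likelihood test).

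*Dct* (chromosome 14, 118012790 to 118052244, minus strand) encodes dopachrome tautomerase, the enzyme between tyrosinase and Tyrp1 in the pathway. Controls had 9.58, 101, 19.6 and 224 CPM, and *Rbfox2*-/- retinas 45.2, 4.78, 6.44 and 18.0 CPM. The span between the highest and the lowest control was 23.3-fold, against 9.46-fold within the *Rbfox2*-/- group. The means were 88.5 ± 99.0 and 18.6 ± 18.7 CPM (SD, n = 4 each), and the log2 fold change was -2.25 (SE 0.98, unadjusted p = 0.0447, adjusted p = 0.368, edgeR quasi-likelihood test). *Dct* was the most abundant of the 8 genes per length, with 39.7 ± 44.5 FPKM in controls and 8.23 ± 8.35 FPKM in *Rbfox2*-/- retinas (SD, n = 4 each).

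*Pmel* (chromosome 10, 128704195 to 128720238, plus strand) encodes the protein of the fibrils on which melanin is deposited. Controls had 2.87, 21.7, 4.69 and 51.7 CPM, and *Rbfox2*-/- retinas 8.88, 1.69, 2.71 and 5.18 CPM. M894 and M898 were again above all *Rbfox2*-/- retinas, and M833 was below M893 and M909. The means were 20.2 ± 22.6 and 4.61 ± 3.20 CPM (SD, n = 4 each), with a log2 fold change of -2.13 (SE 0.85, unadjusted p = 0.0308, adjusted p = 0.338, edgeR quasi-likelihood test), the smallest p of the 8. Exons of *Pmel* overlap those of *Cdk2* and *Dgka*, and whether strand was used in the counting is not given in the sources used here, so its counts are less certain than those of the other genes.

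*Mlana* (chromosome 19, 29697824 to 29708634, plus strand) encodes a melanosome membrane protein, also known as MART-1, that binds the Pmel protein. Controls had 0.649, 6.36, 1.62 and 13.4 CPM, and *Rbfox2*-/- retinas 3.97, 0.244, 0.523 and 1.12 CPM. The *Rbfox2*-/- retina M893 was the third highest of the 8, and the lowest, M901, held 47 counts. The means were 5.52 ± 5.84 and 1.46 ± 1.71 CPM (SD, n = 4 each), with a log2 fold change of -1.91 (SE 0.98, adjusted p = 0.430, edgeR quasi-likelihood test).

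*Slc45a2* (chromosome 15, 11000721 to 11029233, plus strand) encodes a melanosomal transporter mutated in a form of albinism, and was the least abundant of the 8 genes. Controls had 0.245, 0.526, 0.151 and 1.08 CPM, from 29 to 192 counts, and *Rbfox2*-/- retinas had 0.330, 0.202, 0.246 and 0.328 CPM, from 39 to 63 counts. The 4 *Rbfox2*-/- retinas lay close together, with 3 of them above M833 and all above M896. The means were 0.502 ± 0.420 and 0.277 ± 0.0631 CPM (SD, n = 4 each), with a log2 fold change of -0.85 (SE 0.53, adjusted p = 0.519, edgeR quasi-likelihood test).

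*Oca2* (chromosome 7, 56239760 to 56536518, plus strand), the pink-eyed dilution gene, encodes a melanosomal membrane protein that affects the pH of the organelle. Controls had 1.20, 3.33, 1.07 and 4.38 CPM, and *Rbfox2*-/- retinas 1.69, 0.970, 1.10 and 2.18 CPM. The order of the retinas was as in *Tyr* at the top, with M898 and M894 first, and the span over the 8 retinas was 4.51-fold. The means were 2.49 ± 1.63 and 1.49 ± 0.558 CPM (SD, n = 4 each), with a log2 fold change of -0.74 (SE 0.46, adjusted p = 0.515, edgeR quasi-likelihood test).

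*Mitf* (chromosome 6, 97807052 to 98021349, plus strand) encodes the transcription factor that drives the pigment cell genes in melanocytes and in the pigment epithelium. Controls had 9.88, 11.4, 9.70 and 11.4 CPM, and *Rbfox2*-/- retinas 10.3, 10.5, 9.06 and 9.28 CPM. The values of the 8 retinas lay within 1.26-fold, and M894 and M898 were again the highest. The means were 10.6 ± 0.927 and 9.80 ± 0.739 CPM (SD, n = 4 each), with a log2 fold change of -0.11 (SE 0.079, adjusted p = 0.575, edgeR quasi-likelihood test). The 95% interval, -0.29 to 0.06, was far narrower than that of *Dct*, -4.44 to -0.06.

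**Figure D1:**
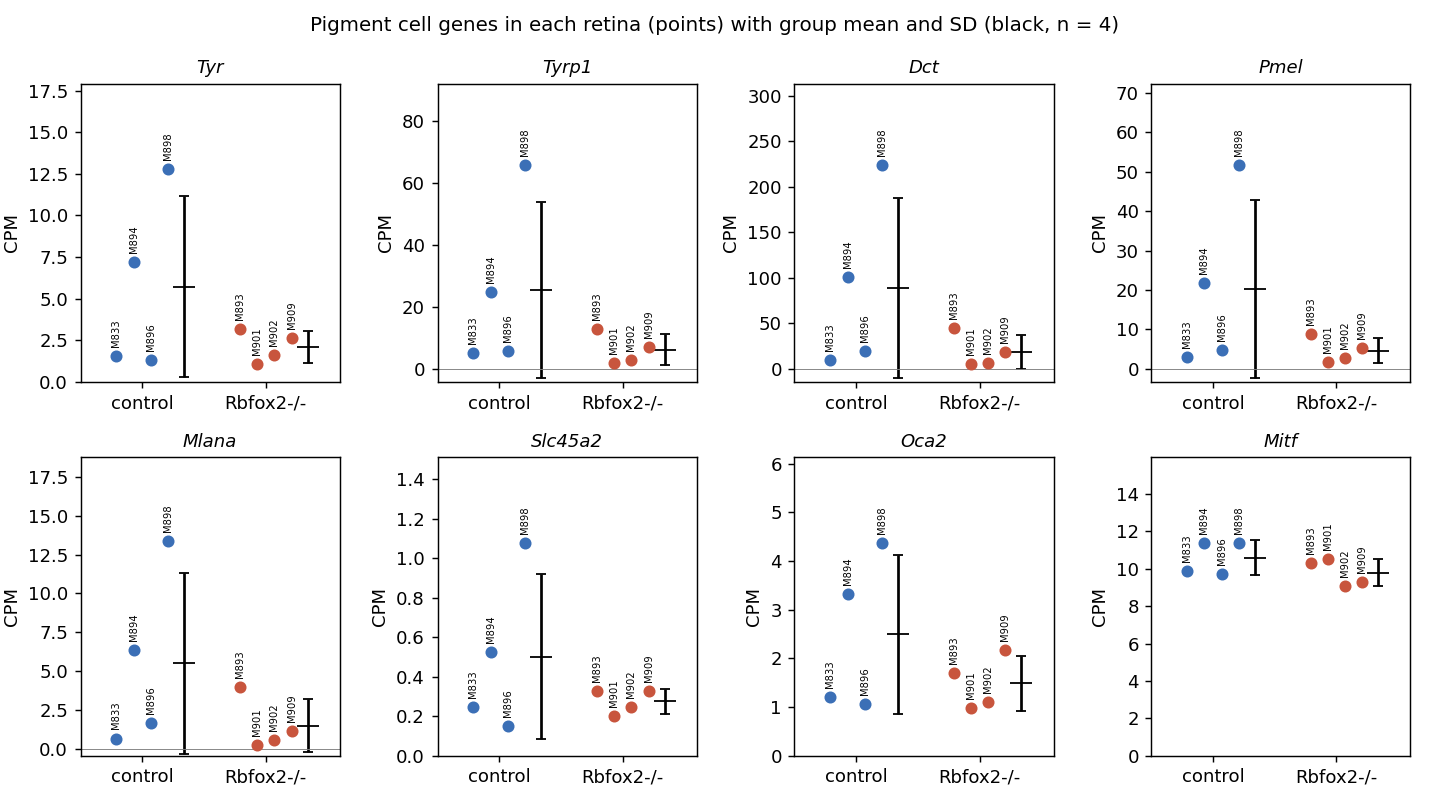
CPM of the 8 pigment cell genes (1 panel per gene, linear axes that differ between panels) in each of the 4 control retinas (blue) and 4 *Rbfox2*-/- retinas (red), with the mean and SD of each group in black. M898 and M894 were the highest retinas in all 8 panels, and the groups overlapped in each, with *Dct* at 9.58 to 224 CPM in controls and 4.78 to 45.2 CPM in *Rbfox2*-/- retinas.

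Over the 8 genes, 0 of 8 had an adjusted p under 0.05 in edgeR's quasi-likelihood test, where 11 of the 16797 genes, or 0.0655%, did. An unadjusted p under 0.05 with lower levels in *Rbfox2*-/- retinas was seen for 3 of the 8, *Tyrp1*, *Dct* and *Pmel*, against 6.87% of all genes tested. DESeq2 called 0 of the 8 at an adjusted p under 0.05, with 3 of 8 at an unadjusted p under 0.05, and called 2.77% of all genes tested. For 0 of the 8 did the CPM ranges of the groups lie apart, as they did for 7.03% of all genes tested. The median log2 fold change was -1.67 over the 8 genes and 0.0016 over all genes tested. The share of members with an unadjusted p under 0.05 rests on values that move together, so that the 3 genes are not independent observations.

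The size of these differences depended on single retinas. Without the control M898 the log2 fold change was -1.22 for *Dct*, -1.08 for *Pmel*, -0.97 for *Mlana*, -0.95 for *Tyrp1*, -0.66 for *Tyr*, -0.32 for *Oca2*, -0.15 for *Slc45a2* and -0.07 for *Mitf*, and no gene had an unadjusted p under 0.05. Without the *Rbfox2*-/- retina M893 it was larger, -3.13 for *Mlana* and -3.18 for *Dct*. Without M901 and M902, the libraries with *Xist*, it was -1.53 for *Pmel*, -1.49 for *Dct*, -1.34 for *Tyrp1*, -1.12 for *Mlana*, -0.98 for *Tyr*, -0.61 for *Slc45a2*, -0.37 for *Oca2* and -0.11 for *Mitf*, and again no gene had an unadjusted p under 0.05. The number of genes with an unadjusted p under 0.05 was also 0 of 8 without M894, M901, M902 or M909 alone. It was 5 without M833, 6 without M896 and 4 without M893, with no adjusted p under 0.05 in any of these fits. The part of these libraries in the difference was not tested beyond these values.

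**Figure D2:**
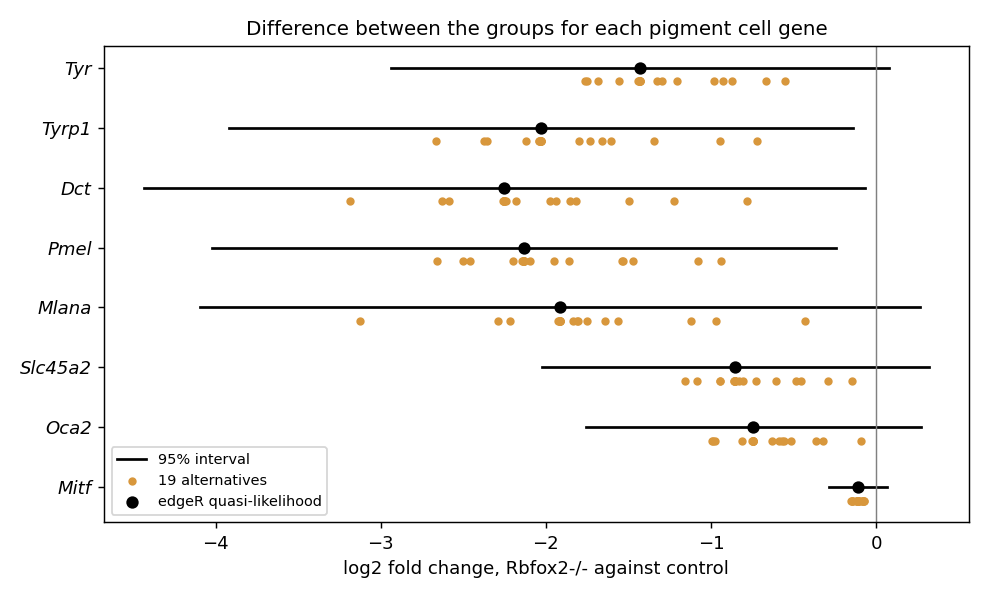
Log2 fold change of each pigment cell gene, *Rbfox2*-/- against control, from edgeR's quasi-likelihood test (black point) with its 95% interval (line) and the estimates under 19 other settings (orange points). All estimates were below 0, those of *Dct* ran from -3.18 to -0.78, and those of *Mitf* lay within -0.15 to -0.07.

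The variation between mice of the same group was the main feature of these genes. The SD of log2 CPM within groups was 1.83 for *Mlana*, 1.81 for *Dct*, 1.55 for *Pmel*, 1.53 for *Tyrp1* and 1.25 for *Tyr*. Its median over all genes tested was 0.0996, and 207 genes, or 1.23% of them, had an SD of 1 or more. The transporters varied less, with 0.887 for *Slc45a2* and 0.818 for *Oca2*, values that 1.73% and 2.12% of genes reached. *Mitf*, with 0.118, was an ordinary gene in this respect, since 42.5% of genes varied as much.

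The 8 genes ordered the retinas in much the same way. M898 was the highest and M894 the second highest retina for 8 of 8 genes, and M901 was the lowest for 6 of 8, the exceptions being *Slc45a2*, lowest in M896, and *Mitf*, lowest in M902. On average over the 8 genes, log2 CPM relative to the control mean was 1.65 in M898 and 0.76 in M894, followed by the *Rbfox2*-/- retinas M893 with -0.12 and M909 with -0.72. The controls M896 and M833 came next with -1.07 and -1.34, and the *Rbfox2*-/- retinas M902 and M901 last with -1.59 and -2.04. The order of the mice thus alternated between the groups, with controls at the top and near the bottom.

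**Figure D3:**
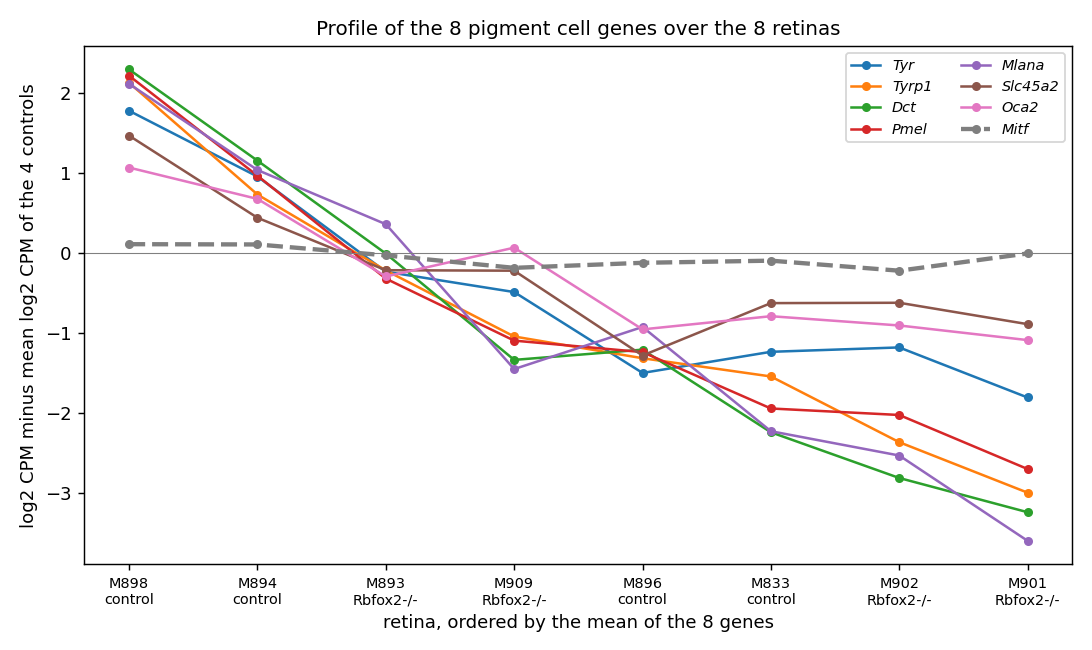
Log2 CPM of each pigment cell gene in each retina minus its mean over the 4 controls, with the 8 retinas ordered by the mean over the 8 genes. The lines of *Dct*, *Mlana*, *Tyrp1*, *Pmel* and *Tyr* run steeply from M898 to M901, those of *Slc45a2* and *Oca2* less so, and *Mitf* (dashed) stays within 1.26-fold over all retinas.

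Ratios between pairs of genes separated them further. The ratio of *Tyrp1* to *Pmel* varied by 1.67-fold over the 8 retinas (SD of its log2, 0.244), although each gene alone varied by 35.3-fold and 30.6-fold. The ratio of *Dct* to *Mlana* varied by 1.65-fold (SD 0.262), beside 46.8-fold and 55.1-fold for the genes. *Slc45a2* and *Oca2* also kept a near-constant ratio, which varied by 1.66-fold (SD 0.280). Across these pairs the ratios were less steady. The ratio of *Dct* to *Oca2* varied by 10.4-fold (SD 1.25), and that of *Dct* to *Mitf* by 43.1-fold (SD 1.86). *Tyr* lay between these pairs. Its ratio to *Slc45a2* varied by 2.70-fold (SD 0.482) and to *Oca2* by 2.69-fold (SD 0.494), less than its ratio to *Dct*, which varied by 4.45-fold (SD 0.863), or to *Mlana*, by 5.24-fold (SD 0.944). Its ratios to *Pmel* and *Tyrp1* had SDs of 0.523 and 0.583. The correlation of each gene with the mean of the other 7, after centring on the group means, was 0.995 for *Pmel*, 0.898 for *Slc45a2* and 0.622 for *Mitf*, over 8 retinas that share their libraries with the genes compared.

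Levels between genes are compared per length, in the FPKM values of the deposited table. In controls the order of the means was *Dct*, *Mlana* with 12.1 ± 12.9, *Pmel* with 9.64 ± 10.8, *Tyrp1* with 9.41 ± 10.5, *Mitf* with 2.18 ± 0.212, *Tyr* with 1.75 ± 1.68, *Oca2* with 0.807 ± 0.534 and *Slc45a2* with 0.170 ± 0.144 FPKM (SD, n = 4 each). The means of neighbours in this order differed by less than the larger of their SDs, except for *Oca2* and *Slc45a2*. These SDs are between mice and do not measure the order of genes within a retina. In every retina *Dct* was above *Mlana*, *Tyr* above *Oca2* and *Oca2* above *Slc45a2*. The order of the other neighbours changed between retinas. In *Rbfox2*-/- retinas *Dct* and *Mlana*, with 3.18 ± 3.74 FPKM, were again the highest, and *Tyrp1*, *Pmel* and *Mitf* lay together at 2.27 ± 1.85, 2.16 ± 1.52 and 1.99 ± 0.158 FPKM. *Tyr*, *Oca2* and *Slc45a2* followed with 0.640 ± 0.293, 0.474 ± 0.180 and 0.0923 ± 0.0217 FPKM. In this group *Mitf* and *Tyr*, and *Oca2* and *Slc45a2*, were the neighbours whose means differed by more than the larger SD.

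Among other genes of the melanosome and of the Mitf family, 33 of 34 were tested, with *Tfec* not among the genes of the table used here. None had an adjusted p under 0.05 in edgeR's quasi-likelihood test, and 1 had in DESeq2. In edgeR 2 of the 33 had an unadjusted p under 0.05, both lower in *Rbfox2*-/- retinas, a share near the 6.87% of all genes tested. The median log2 fold change was -0.04. *Slc24a5*, *Mlph* and *Gpnmb* had their highest level in M898 and their second highest in M894, like the 8 genes. *Slc24a5*, which encodes a melanosomal cation exchanger, had 1.56, 4.86, 1.85 and 11.6 CPM in controls and 2.69, 1.30, 1.51 and 2.85 CPM in *Rbfox2*-/- retinas (log2 fold change -1.25, adjusted p = 0.395, edgeR quasi-likelihood test). *Mlph*, which encodes the adaptor between Rab27a and myosin Va in melanosome transport, had 1.03, 3.81, 1.73 and 11.9 CPM in controls and 2.17, 0.446, 0.857 and 1.83 CPM in *Rbfox2*-/- retinas (log2 fold change -1.80, unadjusted p = 0.0352, adjusted p = 0.347). *Gpnmb*, a relative of *Pmel* named here after its values were seen, was also highest in M898, with 127 CPM, and second in M894, with 56.7 CPM (log2 fold change -1.16, adjusted p = 0.455). Without M898 the log2 fold change was -0.40 for *Slc24a5*, -0.72 for *Mlph* and -0.31 for *Gpnmb*.

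*Slc7a11*, the cystine transporter mutated in subtle gray mice, was the 1 gene of these 33 whose groups did not overlap, where 7.03% of all genes tested lay apart. It was named after its values were seen. It had 14.7, 14.1, 11.7 and 18.4 CPM in controls and 9.37, 6.44, 5.30 and 10.7 CPM in *Rbfox2*-/- retinas. Its log2 fold change was -0.89 (SE 0.21, unadjusted p = 0.0019, adjusted p = 0.176, edgeR quasi-likelihood test), and in DESeq2 the adjusted p was 0.0318. Without M901 and M902 the log2 fold change was -0.56. The 18 genes of melanosome biogenesis, which also serve lysosome-related organelles of other cells, had a summed level of 772 to 814 CPM in controls and 786 to 813 CPM in *Rbfox2*-/- retinas, with 0 of 18 at an adjusted or unadjusted p under 0.05 in edgeR and in DESeq2. Their log2 fold changes ran from -0.41 for *Rab38* to 0.10 for *Hps4*. For *Rab38* it was -0.24 without M898, -0.25 without M901 and -0.0088 without M901 and M902. The largest values of the other lists were 0.01 for the copper transporter *Atp7a* and -0.01 for *Myo7a*, and the Mitf relatives *Tfe3* and *Tfeb* were at 0.0065 and 0.0064.

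Markers of the tissues that hold melanin or adjoin the retina were read beside the 8 genes. The retinal pigment epithelium list had 14 of 14 genes tested, 0 with an adjusted or unadjusted p under 0.05 in edgeR and in DESeq2, and a median log2 fold change of -0.05. Its summed level was 283 to 383 CPM in controls and 254 to 455 CPM in *Rbfox2*-/- retinas, with M909 the highest and M894 the second. *Rpe65*, the retinoid isomerohydrolase of this epithelium, had 9.85, 20.01, 10.1 and 13.5 CPM in controls and 9.35, 7.45, 12.3 and 20.1 CPM in *Rbfox2*-/- retinas (log2 fold change -0.12, adjusted p = 0.906, edgeR quasi-likelihood test). In M898, the retina with the highest values of all 8 pigment cell genes, *Rpe65* was lower than in M894 and M909. *Kcnj13* and *Krt8*, the latter named after its values were seen, were the only genes of the 14 that were highest in M898, with 5.78 and 2.16 CPM. Their group-centred correlations with the mean of the 8 genes were 0.845 and 0.826 over the 8 retinas, the highest of the list. Those of the other genes of the list were lower, from 0.030 for *Rrh* to 0.604 for *Stra6*, with 0.518 for *Rpe65*. *Best1* had a log2 fold change of -0.22, *Kcnj13* of -0.56 and *Ttr* of 0.39, and none had an unadjusted p under 0.05. These values also rested on single mice. *Ttr* was at 0.036 without M909, *Kcnj13* at -0.36 without M898 and at -0.86 without M909, and *Best1* at -0.11 without M896. Without M901 and M902 *Kcnj13* was at -0.17 and *Best1* at -0.058.

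The ciliary and iris epithelium list had 6 of 7 genes tested and a median log2 fold change of -0.91. In edgeR 2 of the 6 had an unadjusted p under 0.05, both lower in *Rbfox2*-/- retinas, against 6.87% of all genes tested. None had an adjusted p under 0.05 in edgeR or in DESeq2. *Best2*, a chloride channel gene of the ciliary epithelium, had 5.13, 7.31, 7.12 and 16.0 CPM in controls and 4.26, 0.150, 0.208 and 4.14 CPM in *Rbfox2*-/- retinas (log2 fold change -2.02, adjusted p = 0.369, edgeR quasi-likelihood test). *Optc*, named after its values were seen, had 36.0 to 61.0 CPM in controls, 41.3 and 47.3 CPM in M893 and M909, and 2.11 and 2.04 CPM in M901 and M902. The lowest values of this list thus lay in M901 and M902, which were also the lowest retinas in the mean of the 8 pigment cell genes. Its highest value lay in M898. For *Best2* M893 and M909 were also below every control, so its groups did not overlap. It was 1 such gene of the 6, where 7.03% of all genes tested lay apart. The paper reported *Best2* as lower in *Rbfox2*-/- retinas by RNA-seq and by real-time PCR. Without M901 and M902 the log2 fold change was -1.09 for *Best2* and -0.07 for *Optc*. *Col9a1* had a log2 fold change of -0.25, which was -0.070 without M901 and -0.011 without M901 and M902.

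The neural crest melanocyte list had 5 of 6 genes tested and a median log2 fold change of 0.06. Its summed level was 19.7 to 20.2 CPM in controls and 20.4 to 21.9 CPM in *Rbfox2*-/- retinas. The largest parts of these sums were *Kit*, with 7.31 to 8.71 CPM over all retinas, and *Ednrb*, with 6.29 to 8.76 CPM. These sums did not overlap, but the groups overlapped for each of the 5 genes, where 7.03% of all genes tested lay apart. The mean log2 CPM of the list relative to controls also overlapped, with -0.12 to 0.13 in controls and -0.09 to 0.33 in *Rbfox2*-/- retinas. In edgeR 0 of 5 had an adjusted p under 0.05, as in DESeq2, and 1, *Mc1r*, had an unadjusted p under 0.05 with a higher level in *Rbfox2*-/- retinas, against 6.42% of all genes tested. *Sox10*, a factor of the neural crest lineage, had 0.434 to 0.961 CPM in controls and 0.462 to 1.15 CPM in *Rbfox2*-/- retinas. *Mc1r*, the receptor for melanocyte-stimulating hormone, had 2.48 to 3.14 and 3.06 to 3.84 CPM, with a log2 fold change of 0.27 (adjusted p = 0.374, edgeR quasi-likelihood test), and *Erbb3* one of -0.07. *Sox10* was highest in M909 and *Mc1r* in M901, unlike the pigment cell genes.

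The choroid and sclera stroma list had 7 of 7 genes tested, and the smooth muscle list 4 of 5. They had 2 and 4 genes with an unadjusted p under 0.05 in edgeR, all lower in *Rbfox2*-/- retinas, against 6.87% of all genes tested. Both had 0 genes with an adjusted p under 0.05 in edgeR (1 and 0 in DESeq2). Their median log2 fold changes were -0.72 and -0.89. The mean log2 CPM of the stroma list relative to controls was -1.47 and -1.57 in the retinas M901 and M902, against -0.13 and -0.18 in the *Rbfox2*-/- retinas M893 and M909. For the smooth muscle list these values were -1.34, -1.30, -0.59 and -0.43. Their summed levels were 36.1 to 54.3 and 7.11 to 25.4 CPM in controls, and 19.9 to 41.1 and 3.97 to 8.003 CPM in *Rbfox2*-/- retinas. *Lum*, a proteoglycan gene of sclera and cornea, had 0.853 CPM in M898 and 0.0126 to 0.147 CPM in the other 7 retinas. Its log2 fold change was -2.04, -0.30 without M898 and -1.51 without M901 and M902. *Myh11*, the smooth muscle myosin gene, had 13.4 CPM in M898 and 1.20 to 4.94 CPM elsewhere, with a log2 fold change of -1.62, and of -0.87 without M898. *Col1a1* was at -0.14 and *Des* at -0.61, and without M901 and M902 they were at 0.087 and -0.34. *Plvap*, a gene of fenestrated endothelium named after its values were seen, had 15.3 to 17.5 CPM in controls and 13.2 to 14.0 CPM in *Rbfox2*-/- retinas (log2 fold change -0.26, adjusted p = 0.116 in edgeR and 0.0012 in DESeq2).

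The M898 library held the highest summed level of the pigment cell, melanosome ion and receptor, ciliary and iris, stroma and smooth muscle lists. It also held that of the Müller glia list, a list of the neural retina, with 4228 CPM against 4174 CPM in M896. The part that tissue from outside the neural retina had in the levels of the 8 genes was not tested.

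**Figure D4:**
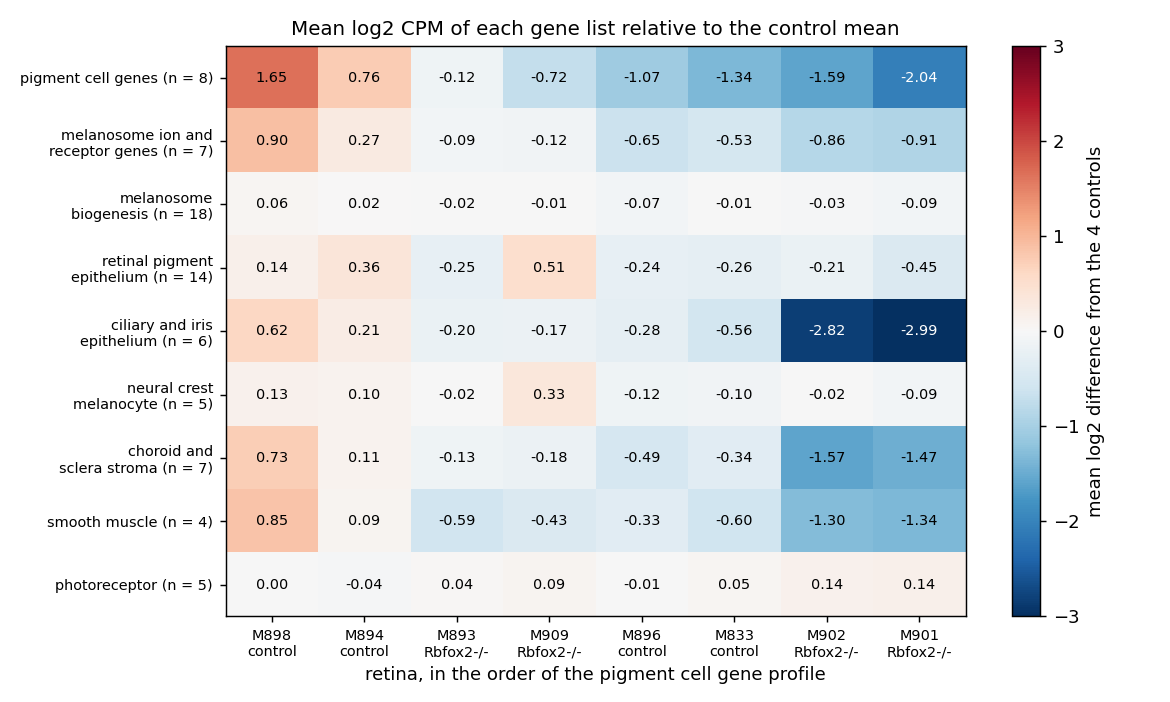
Mean log2 CPM of each gene list in each retina relative to the mean of the 4 controls, with the retinas in the order of the pigment cell gene profile and the number of genes tested in parentheses (colour and printed value). The pigment cell genes run from 1.65 in M898 to -2.04 in M901, the ciliary and iris list is lowest in M901 and M902, at -2.99 and -2.82, and the retinal pigment epithelium list is highest in M909, at 0.51.

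Genes of the neural retina varied less between mice of a group than the pigment cell genes other than *Mitf*. The median SD of log2 CPM within groups was 0.0544 for photoreceptor, 0.0991 for bipolar cell and 0.0615 for Müller glia genes. It was 0.0918 for the horizontal, amacrine and ganglion cell genes, against 1.39 for the 8 pigment cell genes. The highest SDs of these lists were 0.293 for *Pou4f1* and 0.290 for *Rbpms*, above the 0.118 of *Mitf*. The photoreceptor list, with 5 genes, had 3 genes at an unadjusted p under 0.05 in edgeR, all higher in *Rbfox2*-/- retinas, against 6.42% of all genes tested in that direction, and 0 at an adjusted p under 0.05 (2 in DESeq2). The log2 fold changes of the list ran from 0.02 for *Crx* to 0.19 for *Gnat1*. The bipolar cell list ran from -0.12 for *Trpm1* to 0.19 for *Grm6*, and the Müller glia list from -0.17 for *Glul* to 0.05 for *Rlbp1*. Each had 1 of 3 genes at an unadjusted p under 0.05 in edgeR, lower in *Rbfox2*-/- retinas, against 6.87% of all genes tested. Neither list had a gene at an adjusted p under 0.05 in edgeR, and DESeq2 had 0 and 1. Of the 6 horizontal, amacrine and ganglion cell genes, *Calb1* was the one that passed the test, with a log2 fold change of -0.40 (SE 0.036, adjusted p = 0.0034, edgeR quasi-likelihood test), and *Lhx1* had the largest value, 0.18.

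The genes whose levels followed the 8 pigment cell genes most closely were found by the Pearson correlation of group-centred log2 CPM with the group-centred mean of the 8 genes, among 13749 genes with a mean of at least 1 CPM. The 10 highest over the 8 retinas were *Sfrp1* (r = 0.995), *Tspan10* (0.995), *Gsta3* (0.991), *Arhgef5* (0.988), *Serpina3n* (0.986), *Mdk* (0.986), *Ucp2* (0.985), *Islr* (0.985), *Aebp1* (0.984) and *Sh3d19* (0.982). These values are a description of 8 libraries that all genes share, and 189 genes had an r of 0.9 or more. *Sfrp1*, a secreted antagonist of Wnt signalling, had 4.88, 13.1, 5.82 and 21.7 CPM in controls and 7.89, 3.60, 3.82 and 5.97 CPM in *Rbfox2*-/- retinas (log2 fold change -1.09, adjusted p = 0.350, edgeR quasi-likelihood test). *Gsta3*, a glutathione transferase gene, had 2.31, 11.2, 3.69 and 21.0 CPM in controls and 5.29, 1.62, 1.91 and 3.13 CPM in *Rbfox2*-/- retinas (log2 fold change -1.67, adjusted p = 0.322). *Tspan10*, a tetraspanin gene of the pigment epithelium, had 11.6 CPM in M898 and 0.97 to 5.22 CPM in the other retinas. The likeness to the 8 genes is what chose these 10. *Sh3d19* differed from the 8 genes in being highest in M893, with 6.24 CPM. None of the 10 had an adjusted p under 0.05, and the smallest unadjusted p among them was 0.0080, for *Aebp1*.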

How the data were processed

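Retinal RNA of 4 control and 4 *Rbfox2*-/- mice was sequenced, 1 library per mouse, grouped by the labels. The authors aligned 2 × 150 paired reads to mm10 (GRCm38) with STAR, kept uniquely mapped reads and deposited raw HTSeq fragment counts per gene, and each gene of the deposited table reached 5 counts or more in 4 mice or more. Both RefSeq and Ensembl annotations are named for the counting, and its strand setting is not given in the sources used here. The submitters' processing notes name CASAVA 1.8.2 and edgeR. The authors also deposited FPKM values, used here only to compare levels between genes, with a gene length that is not given in the sources used here. A further 16 columns of per-mouse values and 6 columns of the authors' fold changes, p-values and FDR were not used.

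Counts were filtered with filterByExpr, TMM-scaled and compared in edgeR 4.0.16 (R 4.3.3) by its quasi-likelihood test without covariates, with Benjamini-Hochberg adjustment over 16797 genes. SE was computed from the log2 fold change and its F statistic. Log2 CPM used a prior count of 2. On simulated counts of 16718 genes the test recovered 91% of 200 genes changed 2-fold, with 10 other calls. These 200 were drawn at random above a minimum count. The rate does not carry over to the pigment cell genes other than *Mitf*, whose within-group SD was 0.818 to 1.83 against a median of 0.0996 over all genes tested. Library pairs all differed by more than sampling noise (smallest chi-square per degree of freedom, 30.1). Since 1 library per mouse was made, the spread between mice includes that of dissection, RNA isolation and library preparation, which cannot be told apart from it. Alternatives used DESeq2 1.42.0, edgeR's likelihood ratio and robust fits, limma 3.58.1 (voom and trend), sva 3.50.0, other scaling and filters, and left out mice.

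The members, gene lists and tests were chosen with earlier results of these data known. The genes named are the 8 members, *Rbfox2*, in each list those with FDR under 0.05, the largest and smallest log2 fold changes and the defining markers (1 is not reported here), and the 10 genes most like the members. *Slc7a11*, *Gpnmb*, *Plvap*, *Krt8*, *Optc*, *Rbpms*, *Pou4f1*, *Kit*, *Ednrb* and *Pde6b* were named after their values were seen. Counting intervals would cover counting error only, so spread between mice is given instead.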

Additional observations from a re-analysis of the deposited data

Results flagged for a closer look

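Within each group of 4 retinas, the highest or lowest value was set against the range of the group for 208 sets of values of the listed genes, and 10 stood far from the other 3, where chance gives about 10.4. None was of the 8 pigment cell genes. M833 stood apart among controls for *Atp7a* (27.8 CPM), *Sytl2* (10.3 CPM), *Rbpms* (23.3 CPM) and *Pou4f1* (23.7 CPM). M898 stood apart among controls for *Lum* (0.853 CPM), *Acta2* (7.58 CPM) and *Tagln* (3.23 CPM). M909 stood apart among *Rbfox2*-/- retinas for *Rdh5* (16.8 CPM), *Stra6* (19.5 CPM) and *Erbb3* (1.37 CPM).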

How the results depend on the processing

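Under 19 alternatives each of the 8 pigment cell genes kept a negative log2 fold change and an adjusted p above 0.05, from 0.162 (*Pmel*) to 0.999 (*Oca2*). With 1 surrogate variable the estimate of *Dct* was -0.78. The number of genes with an adjusted p under 0.05, 11 in edgeR's quasi-likelihood test, was 465 in DESeq2, 164 in the likelihood ratio test, 4 with 1 surrogate variable, 1 without M901 and M902, and 5 to 35 with single mice left out. Among the listed genes DESeq2 also called *Slc7a11* (-0.89), *Plvap* (-0.26), *Gnat1* (0.19), *Pde6b* and *Glul* (-0.17). Without M901 and M902 *Calb1* had an adjusted p of 0.0501 in edgeR's quasi-likelihood test. Of the 10 most similar genes, 5 were shared with the list made without centring on the groups. The cause of these changes was not tested. The sign of some small log2 fold changes turned. Without M901 and M902 they were 0.0057 for *Myo7a*, 0.14 for *Rpe65*, 0.28 for *Erbb3*, 0.087 for *Col1a1* and -0.0042 for *Crx*. With single mice left out they ran from -0.018 to 0.088 for *Atp7a*, -0.042 to 0.035 for *Myo7a*, -0.0077 to 0.018 for *Tfe3*, -0.031 to 0.041 for *Tfeb*, -0.46 to 0.14 for *Rpe65*, -0.19 to 0.26 for *Sox10*, -0.49 to 0.079 for *Erbb3* and -0.24 to 0.020 for *Col1a1*. No paired analysis was possible because the labels link no control mouse to an *Rbfox2*-/- mouse. Libraries of different mice differed by more than sampling noise in every pair, and the part of depth in these comparisons was not tested.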
